A study of Mus musculus with 8 samples.

Results

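The inhibitors and feedback regulators of NF-κB were examined as 10 named genes of the 23413 gene symbols counted in tumor-associated macrophages (TAMs). They comprised the classical IκB genes Nfkbia, Nfkbib and Nfkbie, the atypical nuclear IκB genes Nfkbid, Nfkbiz and Bcl3, the ubiquitin-editing genes Tnfaip3 and Tnip1, and the mRNA decay genes Zfp36 and Zc3h12a. The 10 genes were listed by name, with earlier results of these counts known, and all 10 were found in the count table and passed the filter on low counts in every comparison. TAMs, sorted as CD45+F4/80+CD11b+Gr-1- cells from B16F10 melanomas of 8 mice, were sequenced with 1 library per mouse. The mice were male C57BL/6 mice, 8 to 10 weeks old at inoculation, which carried the subcutaneous tumor in the flank and were dosed on days 6 and 12 before sorting on day 18. A group of 2 mice was given the vehicle DMSO (DMSO mice), 4 mice were given thiostrepton, a thiopeptide antibiotic, by intraperitoneal injection (I.P. mice), and 2 mice were given 20 mg/kg thiostrepton by subcutaneous injection next to the tumor (S.C. mice). All groups thus carried the same implanted tumor line. The study's I.P. doses were higher than its S.C. dose, so that route and dose cannot be told apart between the treated groups. Which of its I.P. doses these I.P. mice received, and by which of both routes each DMSO mouse was given vehicle, was not stated for single mice, and the treated groups are compared with the same 2 DMSO mice.

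NF-κB dimers are held in the cytoplasm of resting cells by IκB proteins, and inflammatory signals lead to the phosphorylation and degradation of IκBα, the product of Nfkbia. The freed dimers enter the nucleus and switch on inflammatory genes together with genes for their own inhibitors, among them Nfkbia and Tnfaip3, so that the response is limited in time. In macrophages this feedback acts at several levels, namely on the dimers themselves, on the ubiquitin chains that carry the signal to the IκB kinase, and on the stability of cytokine mRNAs.

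The κB motif, the DNA element bound by NF-κB dimers, was searched on both strands in RefSeq promoter windows of GRCm38.p6 that run from 250 bases before to 50 bases after an annotated start. Windows were found for 9 of the 10 genes, and Nfkbiz was not among them. A match to the degenerate κB consensus was present in a window of 6 of these 9 genes, compared with 8.46% of the 32851 windows and 9.55% of the 27025 genes of the table. Stretches around the matches are shown because they set these genes apart from Nfkbib, Zfp36 and Zc3h12a, whose windows held no match. Sequences are written along the strand of the gene, from 5′ to 3′, with the matched bases in capitals.
Nfkbia, chr12:55492652-55492691, minus strand: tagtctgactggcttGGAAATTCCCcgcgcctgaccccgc
Nfkbie, chr17:45555579-45555618, plus strand: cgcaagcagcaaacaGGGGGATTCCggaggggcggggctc
Nfkbid, chr7:30422165-30422249, plus strand: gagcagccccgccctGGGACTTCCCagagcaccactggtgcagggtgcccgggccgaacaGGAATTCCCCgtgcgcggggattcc
Bcl3, chr7:19822729-19822768, minus strand: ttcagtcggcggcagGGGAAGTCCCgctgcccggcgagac
Tnfaip3, chr10:19015398-19015550, minus strand: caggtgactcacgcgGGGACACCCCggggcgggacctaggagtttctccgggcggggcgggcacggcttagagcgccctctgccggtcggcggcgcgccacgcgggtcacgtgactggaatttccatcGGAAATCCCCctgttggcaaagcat
Tnip1, chr11:54962972-54963013, minus strand: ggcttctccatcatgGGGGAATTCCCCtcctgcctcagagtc

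The match in Nfkbia began 29 bases before the start. Tnip1 held 3 overlapping matches within a single palindromic stretch. Nfkbid, in the window of an alternative start, and Tnfaip3 each held 2 separate matches. The AP-1 motif TGANTCA was found in Nfkbie and Tnfaip3 and in 7.81% of all windows, the CRE motif TGACGTCA in Nfkbid and in 1.79%, and the CArG consensus, which is bound by serum response factor, in Zfp36 and in 1.63%. These matches describe the sequence only, and binding of a factor was not measured. In the GRCm38 annotation, 4 of the 10 genes, Nfkbib, Nfkbid, Bcl3 and Zfp36, lie on chromosome 7.

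Library depth was even, with 14127506 to 17577466 counts per mouse, and levels are given as CPM, the count of a gene relative to the total of its library, after TMM scaling. I.P. mouse 1 stood apart from I.P. mice 2 to 4 for most of the genes described here, and results that rest on it are given with and without it. The numbers in the sample titles began with I.P. mouse 1, went on with the S.C. and then the DMSO mice, and ended with I.P. mice 2 to 4, so that any effect of this order cannot be told apart from treatment except through I.P. mouse 1. In sorted bulk cells, a lower level from fewer cells of a type cannot be told apart from less RNA per cell.

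Among the classical IκB genes, Nfkbia showed the widest range. Nfkbia (chr12:55489410-55492647) encodes IκBα, the inhibitor that is degraded and made again in each round of signalling. Its level was 101 and 109 CPM in the DMSO mice, 967, 85.8, 157 and 155 CPM in I.P. mice 1 to 4, and 538 and 608 CPM in the S.C. mice. Both S.C. mice and I.P. mouse 1 were thus well above both DMSO mice, I.P. mice 3 and 4 were slightly above them, and I.P. mouse 2 was below them. The difference of S.C. from DMSO was 2.45 ± 0.30 on the log2 scale (SE, edgeR quasi-likelihood test, adjusted p = 0.533), and that of I.P. from DMSO was 1.69 ± 0.93. Without I.P. mouse 1 the latter was 0.33.

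Nfkbib (chr7:28758251-28767512) encodes IκBβ, which is degraded and replaced more slowly than IκBα. It was measured at 46.9 and 49.5 CPM in the DMSO mice, 120.0, 48.4, 55.1 and 57.8 CPM in I.P. mice 1 to 4, and 93.3 and 68.3 CPM in the S.C. mice. I.P. mouse 1 was the highest, and the S.C. mice exceeded the DMSO mice by a smaller margin than for Nfkbia, 0.75 ± 0.33 on the log2 scale. The I.P. difference from DMSO was 0.54 ± 0.38, or 0.15 without I.P. mouse 1. In the annotation, 314 bases of its exons, 14.8% of their length, overlap exons of Ccer2 on the opposite strand, and Ccer2 was not in the count table.

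Nfkbie (chr17:45555703-45563169) encodes IκBε, an inducible inhibitor of RelA and c-Rel dimers. Its level was 14.0 and 9.30 CPM in the DMSO mice, 22.4, 9.11, 13.4 and 11.3 CPM in I.P. mice 1 to 4, and 26.2 and 40.0 CPM in the S.C. mice. The S.C. mice lay above all 6 other mice, and I.P. mice 2 to 4 lay below DMSO mouse 1. S.C. differed from DMSO by 1.51 ± 0.48 and from I.P. by 1.26 ± 0.43 on the log2 scale.

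**Figure D1:**
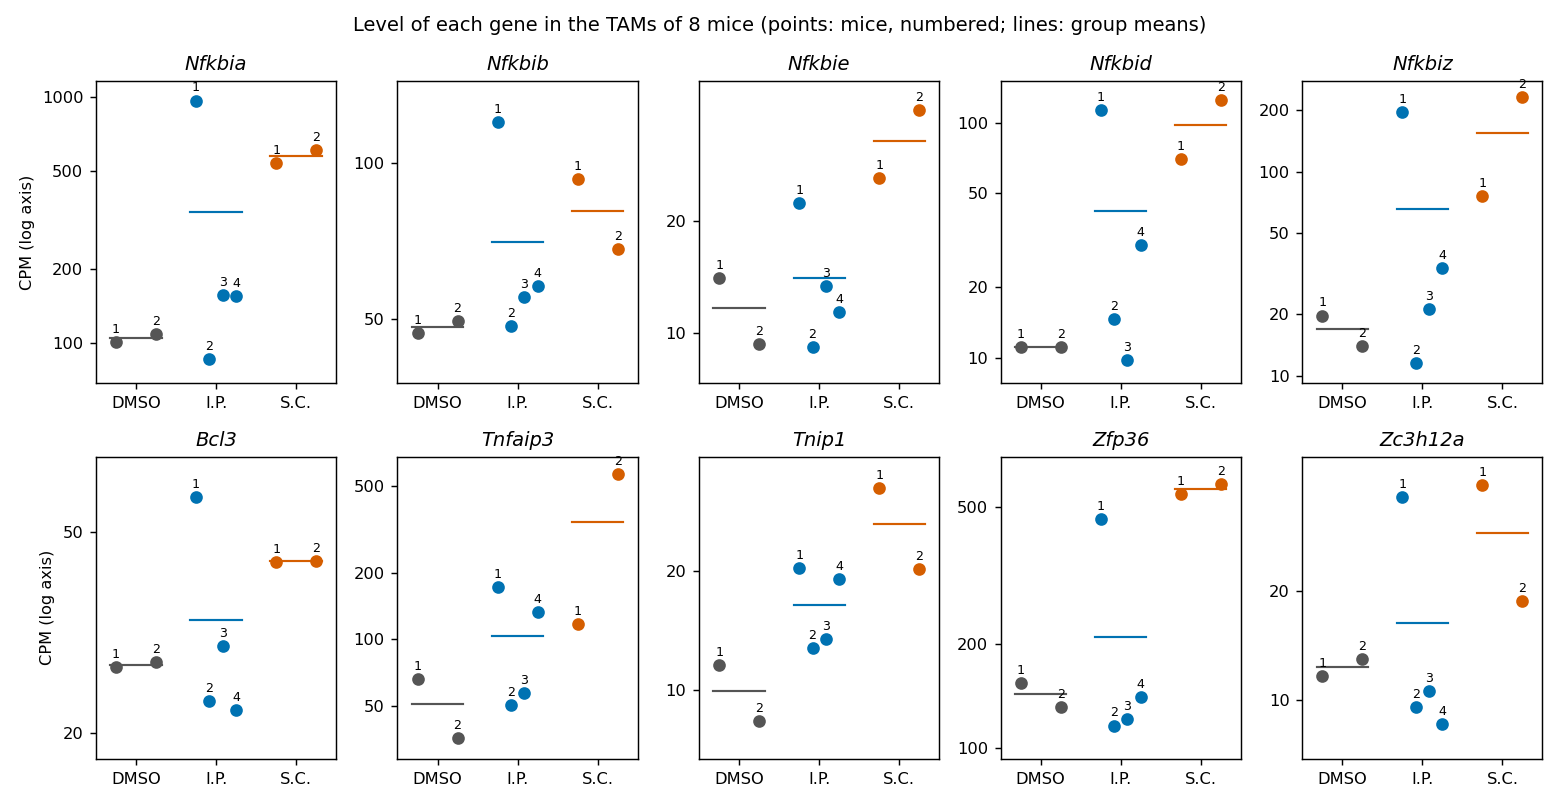
Level of each of the 10 genes in the TAMs of 8 mice, in CPM on a log axis, with 1 point per mouse numbered as in its label and a line at each group mean. S.C. mice 1 and 2 lie above both DMSO mice in all 10 panels, I.P. mouse 1 does so as well, and I.P. mice 2 to 4 lie near the DMSO mice in most panels.

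The atypical IκB genes Nfkbid and Nfkbiz had the largest differences between S.C. and DMSO mice of the 10 genes. Nfkbid (chr7:30421732-30428746) encodes IκBNS, a nuclear IκB protein that restrains or aids transcription depending on the target gene. It was measured at 11.1 CPM in each DMSO mouse, 113, 14.6, 9.75 and 30.3 CPM in I.P. mice 1 to 4, and 70.1 and 125 CPM in the S.C. mice. I.P. mouse 1 and both S.C. mice were many times above the DMSO mice, and I.P. mouse 3 was below them. S.C. exceeded DMSO by 3.13 ± 0.43 on the log2 scale (adjusted p = 0.563), and I.P. exceeded DMSO by 1.90 ± 0.93, or 0.70 without I.P. mouse 1.

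Nfkbiz (chr16:55811375-55838899) encodes IκBζ, a nuclear coactivator needed for secondary response genes such as Il6. Its level was 19.7 and 14.0 CPM in the DMSO mice, 197, 11.5, 21.3 and 33.9 CPM in I.P. mice 1 to 4, and 76.3 and 232 CPM in the S.C. mice. The S.C. mice both exceeded the DMSO mice but differed from each other by 3.04-fold. The S.C. difference from DMSO was 3.19 ± 0.62 on the log2 scale, 2.15 without S.C. mouse 2, and that of I.P. was 1.95 ± 1.07, or 0.39 without I.P. mouse 1.

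Bcl3 (chr7:19808462-19822770) encodes a nuclear IκB protein that binds p50 and p52 dimers. It was measured at 27.0 and 27.7 CPM in the DMSO mice, 58.6, 23.2, 29.8 and 22.3 CPM in I.P. mice 1 to 4, and 43.6 and 43.8 CPM in the S.C. mice. The S.C. mice were alike and above the DMSO mice, whereas I.P. mice 2 and 4 were below them. The S.C. difference from DMSO, 0.68 ± 0.34 on the log2 scale, was the smallest of the 10 genes.

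Of the genes for ubiquitin-editing proteins, Tnfaip3 varied most among mice of the same group. Tnfaip3 (chr10:19000910-19015657) encodes A20, which removes and attaches ubiquitin chains on signalling proteins upstream of the IκB kinase. Its level was 65.8 and 35.7 CPM in the DMSO mice, 173, 50.1, 57.1 and 133 CPM in I.P. mice 1 to 4, and 118 and 564 CPM in the S.C. mice. S.C. mouse 2 was 4.78-fold above S.C. mouse 1, and S.C. mouse 1 was below I.P. mice 1 and 4. The S.C. difference from DMSO was 2.75 ± 0.80 on the log2 scale, 1.19 without S.C. mouse 2 and 3.47 without S.C. mouse 1.

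Tnip1 (chr11:54910785-54962917) encodes ABIN1, a ubiquitin-binding partner of A20. It was measured at 11.6 and 8.37 CPM in the DMSO mice, 20.4, 12.8, 13.4 and 19.1 CPM in I.P. mice 1 to 4, and 32.5 and 20.3 CPM in the S.C. mice. It was the only one of the 10 genes that was higher in each of the 4 I.P. mice than in either DMSO mouse, a pattern seen for 7.29% of the 12174 genes tested. The difference of I.P. from DMSO was 0.71 ± 0.32 on the log2 scale (edgeR quasi-likelihood test, adjusted p = 0.980), and that of S.C. from DMSO was 1.41 ± 0.50.

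The mRNA decay genes differed in abundance. Zfp36 (chr7:28376784-28380253) encodes tristetraprolin, which binds AU-rich elements of cytokine mRNAs such as that of Tnf and promotes their decay. Its level was 154 and 132 CPM in the DMSO mice, 459, 116, 121 and 139.9 CPM in I.P. mice 1 to 4, and 543 and 582 CPM in the S.C. mice. The S.C. mice lay above all 6 other mice, and I.P. mice 2 and 3 lay below both DMSO mice. The S.C. difference from DMSO was 1.98 ± 0.30 on the log2 scale (adjusted p = 0.652), and the I.P. difference was 0.54 ± 0.57, or -0.19 without I.P. mouse 1.

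Zc3h12a (chr4:125118423-125127840) encodes Regnase-1, an endonuclease that cleaves stem-loops of mRNAs such as that of Il6. It was measured at 11.6 and 13.0 CPM in the DMSO mice, 36.7, 9.54, 10.6 and 8.58 CPM in I.P. mice 1 to 4, and 39.4 and 18.8 CPM in the S.C. mice. It was the only one of the 10 genes for which I.P. mice 2, 3 and 4 were each below both DMSO mice, which held for 9.16% of the 12254 genes compared. S.C. differed from DMSO by 1.24 ± 0.52 on the log2 scale, and by 0.60 without S.C. mouse 1. I.P. differed from DMSO by 0.40 ± 0.60 on the log2 scale, and by -0.37 without I.P. mouse 1.

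**Figure D2:**
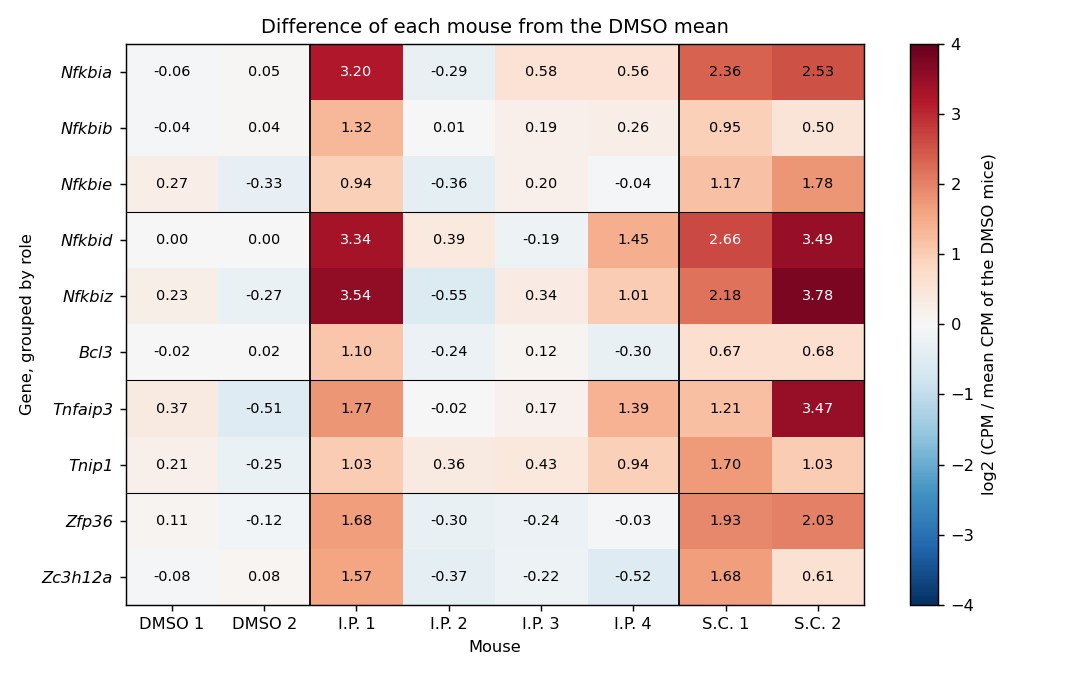
Level of each gene in each mouse relative to the mean of the DMSO mice, as log2 of the ratio of CPM, with genes in rows grouped by role and mice in columns. I.P. mouse 1 and both S.C. mice are above 0 for all 10 genes, whereas I.P. mouse 2 is below both DMSO mice for 6 of them.

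The comparison of I.P. with DMSO mice asked how systemic thiostrepton changed TAM transcripts. All 10 genes had a positive log2 fold change, from 0.27 for Nfkbie to 1.95 for Nfkbiz, with a median of 0.63 compared with 0.02 over all genes tested. The study's criterion for a changed gene was a difference of 2-fold or more with P below 0.05 before adjustment. None of the 10 met it, whereas 1.53% of the 12174 genes tested met it with a higher level in the I.P. mice. None of the 10 was below 0.05 before adjustment at all, as 418 of the 12174 genes were. Without I.P. mouse 1 the median of the 10 genes was 0.24, and the values of Bcl3, Nfkbie, Zfp36 and Zc3h12a were negative. No gene of the whole table had an adjusted p under 0.05 by the edgeR quasi-likelihood test, whereas DESeq2 gave 19. Without I.P. mouse 2, 4 genes met the criterion, namely Nfkbia, Nfkbid, Nfkbiz and Tnfaip3, and without I.P. mouse 3 only Nfkbid did, while the share of all genes that met it as higher was then 2.33% and 2.09%.

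The comparison of S.C. with DMSO mice asked the same for injection next to the tumor. All 10 genes were higher in both S.C. mice than in both DMSO mice, which held for 16.0% of the 11680 genes tested. Log2 fold changes ran from 0.68 for Bcl3 to 3.19 for Nfkbiz, with a median of 1.74 compared with 0.02 over all genes tested. The criterion was met by 7 of the 10, all higher, compared with 2.29% of all genes in this direction. Nfkbib, Bcl3 and Zc3h12a did not meet it. As the 10 genes were named with these results known, the counts describe them and are not a test. Ranked by P over the 11680 genes, Nfkbia was at place 4, Nfkbid at place 8 and Zfp36 at place 13. The lowest adjusted p among the 10 was 0.533, and no gene of the whole table had an adjusted p under 0.05, although 632 were below 0.05 before adjustment. DESeq2 gave 107 genes with an adjusted p under 0.05. Leaving out a single S.C. mouse changed this, with 2407 genes without S.C. mouse 2, 9 of the 10 genes among them, and 1979 without S.C. mouse 1, 6 of the 10 among them. The spread was then estimated from the DMSO mice alone, and the remaining S.C. mouse was assumed to vary like them. The criterion was met by 8 and 7 of the 10 genes in these fits, when 10.7% and 10.1% of all genes met it as higher, and by 5 without DMSO mouse 1 or DMSO mouse 2, when 1.15% and 0.692% did. An exact permutation test of a single gene cannot give a p below 0.333 with 2 against 2 mice, or below 0.133 with 4 against 2.

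S.C. mice were also compared with I.P. mice, groups that differed in both route and dose. All 10 log2 fold changes were positive, with a median of 1.05 compared with 0.02 over all genes tested. The criterion was met by 3 genes, Nfkbie (1.26 ± 0.43), Tnfaip3 (1.75 ± 0.65) and Zfp36 (1.45 ± 0.55), compared with 2.41% of the 12206 genes tested in this direction, and the lowest adjusted p among the 10 was 0.470. Both S.C. mice lay above all 4 I.P. mice for Nfkbie and Zfp36, a pattern seen for 7.46% of genes. For Nfkbia, Nfkbib and Bcl3, I.P. mouse 1 was above both S.C. mice, and the S.C. difference from I.P. was 0.77 ± 0.85, 0.23 ± 0.41 and 0.41 ± 0.44 on the log2 scale. Without I.P. mouse 1 the criterion was met by 7 genes, all but Nfkbib, Bcl3 and Tnip1, against 3.12% of all genes as higher, and the median was 1.88. A single gene, Nfkbie, met it without I.P. mouse 2 or I.P. mouse 3, against 1.61% and 1.97% of all genes. Tnip1 alone met it without S.C. mouse 2, against 5.34%, and 1 of 10 is read as near the background. Nfkbie and Tnfaip3 met it without I.P. mouse 4 or S.C. mouse 1, against 2.01% and 5.66%. Tnfaip3 was at 0.23 without S.C. mouse 2.

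**Figure D3:**
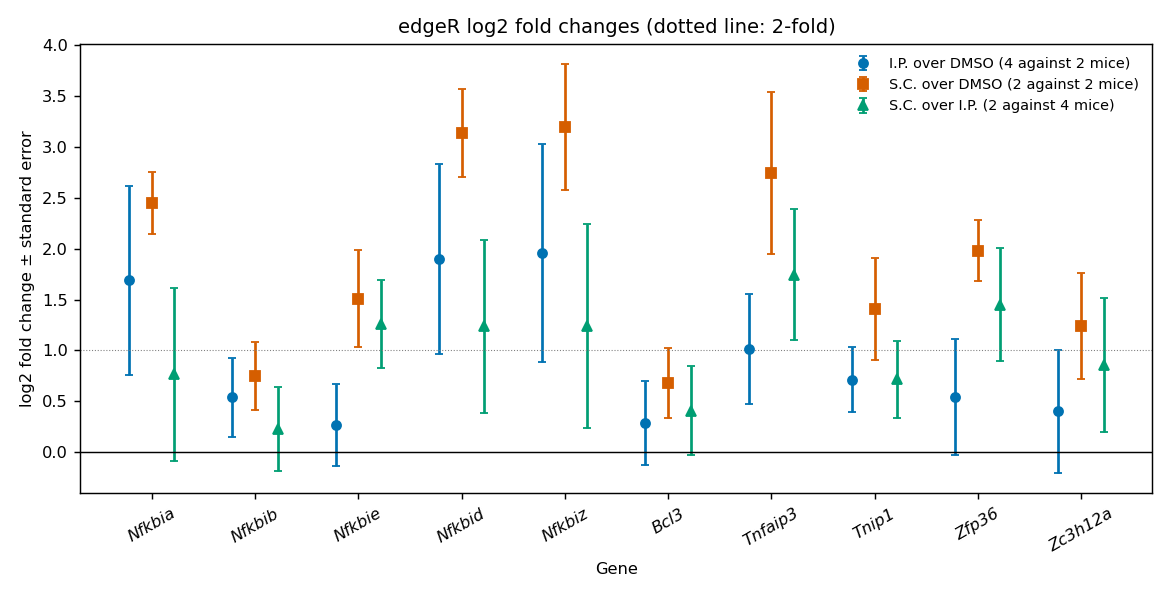
Log2 fold change of each gene in the 3 comparisons, with the standard error as bars, and a dotted line at a 2-fold change. S.C. over DMSO is the largest of the 3 values for every gene, its values are highest at Nfkbiz (3.19), Nfkbid (3.13) and Tnfaip3 (2.75), and the longest bar is that of I.P. over DMSO at Nfkbiz (1.07).

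The split among the I.P. mice was seen when each mouse was set against the DMSO mice. In I.P. mouse 1 all 10 genes were above both DMSO mice, compared with 40.2% of the 12254 genes compared, and the median ratio to the DMSO mean was 3.09. The ratio was at least 2 for 9 of the 10 genes in this mouse, compared with 13.9% of all genes, and 6 of the 10 were at least 2-fold above the highest of I.P. mice 2 to 4, as were 5.37% of all genes. In I.P. mouse 2 only Nfkbid and Tnip1 were above both DMSO mice, against 29.4% of all genes, and 6 were below both, against 29.6%, with a median ratio of 0.832. I.P. mice 3 and 4 had 5 and 6 genes above both DMSO mice, against 30.4% and 39.5% of all genes, and 3 and 2 below both, against 33.3% and 35.2%, with median ratios of 1.13 and 1.34. In I.P. mouse 4 the ratio was at least 2 for 3 genes, Nfkbid, Nfkbiz and Tnfaip3, compared with 9.30% of all genes, and in I.P. mice 2 and 3 for none of the 10, compared with 3.07% and 3.30%.

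In S.C. mice 1 and 2 all 10 genes were above both DMSO mice, against 38.4% and 37.8% of all genes, with median ratios of 3.23 and 3.75. Nfkbiz and Tnfaip3 were at least 2-fold higher in S.C. mouse 2 than in S.C. mouse 1, as were 24.3% of all genes. Zc3h12a was at least 2-fold higher in S.C. mouse 1, as were 21.8%. These counts, 2 and 1 of the 10 genes, are not above the shares of all genes. Nfkbia and Zfp36 differed by only 1.13-fold and 1.07-fold between these mice.

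**Figure D4:**
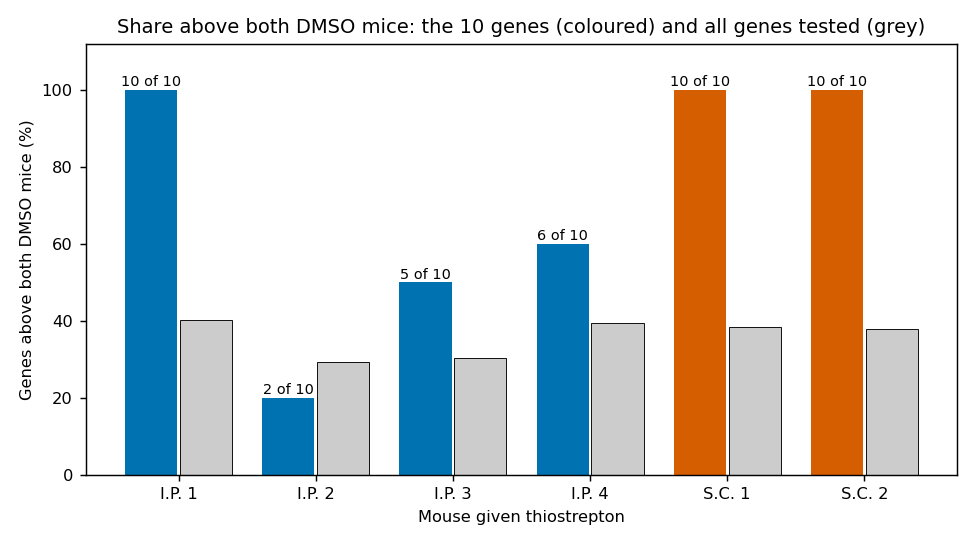
Share of genes above both DMSO mice in each of the 6 treated mice, in percent, for the 10 genes (coloured bars) and for all 12254 genes compared (grey bars). The coloured bars reach 10 of 10 in I.P. mouse 1 and both S.C. mice and 2 of 10 in I.P. mouse 2, while the grey bars stay between 29.4% and 40.2%.

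Levels of different genes were compared per kilobase of the longest annotated transcript. In the DMSO mice Nfkbia was the most abundant at 66.6 ± 3.61 CPM per kilobase (SD, n = 2), followed by Zfp36 at 51.3 ± 5.79, Nfkbib at 23.4 ± 0.900, Bcl3 at 14.8 ± 0.239 and Tnfaip3 at 11.5 ± 4.81. Each of these was separated from the next by more than the spread of the mice, except Bcl3 and Tnfaip3, whose ranges overlapped. The other genes lay between 5.45 ± 0.0154 for Nfkbid and 3.35 ± 0.762 for Tnip1, with Nfkbie, Zc3h12a and Nfkbiz in this order between them, and the ranges of all neighbours in this lower set overlapped. Nfkbia and Zfp36 also led in the S.C. mice, at 363 ± 31.3 and 202 ± 9.84 CPM per kilobase (SD, n = 2), and their ranges did not overlap with each other or with the next gene. Tnfaip3 (77.1 ± 71.3), Nfkbid (47.8 ± 19.1), Nfkbib (39.2 ± 8.55), Nfkbiz (37.5 ± 26.7) and Bcl3 (23.6 ± 0.0575) followed, each overlapping with its neighbour. Nfkbie (13.6 ± 4.01), Zc3h12a (10.6 ± 5.29) and Tnip1 (8.88 ± 2.90) were the lowest and overlapped as well. In the I.P. mice the order began with Nfkbia (216 ± 265, n = 4) and ended with Tnip1 (5.53 ± 1.30), and all neighbours overlapped.

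The balance between members of the family was followed as a ratio of CPM within each library, which does not depend on the scaling. Nfkbia over Nfkbib was 2.16 and 2.2 in the DMSO mice, 8.05, 1.77, 2.85 and 2.69 in I.P. mice 1 to 4, and 5.77 and 8.90 in the S.C. mice. The inducible inhibitor thus stood higher against IκBβ in both S.C. mice and in I.P. mouse 1 than in the other mice. Nfkbia over Rela, which encodes the p65 subunit that IκBα holds, was 1.42 and 1.55 in the DMSO mice, 9.38, 1.10, 2.38 and 1.55 in I.P. mice 1 to 4, and 6.69 and 9.49 in the S.C. mice. Nfkbia over Tnf, an NF-κB target cytokine, was 2.45 and 4.27 in the DMSO mice, 4.42, 3.25, 2.92 and 1.57 in I.P. mice 1 to 4, and 4.38 and 5.23 in the S.C. mice, a narrower range over the mice than that of Nfkbia over Rela. Zfp36 over Zc3h12a was 13.3 and 10.1 in the DMSO mice, 11.4 to 16.3 in the I.P. mice, 13.8 in S.C. mouse 1 and 31.0 in S.C. mouse 2. Tnfaip3 over Tnip1 stood out in S.C. mouse 2, where it was 27.8, compared with 3.63 to 8.48 in the other 7 mice.

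The genes whose levels followed the mean of the 10 genes most closely over the 8 mice were sought among 9315 other genes, by the root mean square difference of log2 CPM centred on each gene's own mean. These were Rgs2 (0.17), Pim3 (0.19), Nfil3 (0.26), Trib1 (0.28) and Rab11fip1 (0.28). Rgs2 was measured at 69.7 and 57.9 CPM in the DMSO mice, 306, 62.3, 91.7 and 86.5 CPM in I.P. mice 1 to 4, and 189 and 319 CPM in the S.C. mice. For single genes the closest were Fosl2 for Nfkbia (0.26), S100a1 for Nfkbib (0.11), Trp53i13 for Nfkbie (0.17), Egr1 for Nfkbid (0.41), Btg2 for Nfkbiz (0.45), 1300002E11Rik for Bcl3 (0.12), Tcp11l2 for Tnfaip3 (0.38), Gadd45g for Tnip1 (0.20), Nfil3 for Zfp36 (0.13) and Phf12 for Zc3h12a (0.26). Among the 10 genes themselves Nfkbib and Bcl3 were the most alike (0.21) and Nfkbiz and Tnip1 the least (1.23).

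Other negative regulators of the pathway were examined as a list. Of 30 tested, 1 met the criterion in I.P. compared with DMSO and 4 did in S.C. compared with DMSO, all higher, with median log2 fold changes of 0.19 and 0.43. Over all genes tested 1.53% and 2.29% met it as higher, so that the I.P. count is near the background. The 4 included Socs3, an inhibitor of cytokine receptor signalling (1.82 ± 0.36), Dusp1, a phosphatase of stress kinases (2.74 ± 0.55), and Il10, an anti-inflammatory cytokine (1.98 ± 0.57). Zc3h12c, a relative of Regnase-1, met the criterion in I.P. compared with DMSO (1.04 ± 0.46) and was lower in S.C. than in I.P. (-1.90 ± 0.61). The S.C. count was lower without DMSO mouse 1. It was higher without S.C. mouse 1, when more of all genes met the criterion as well. Both fits leave 1 mouse in a group, so their counts are not read as results. Counted in either direction, the I.P. count was 0 without I.P. mouse 1, 3 or 4, beside 1.64%, 3% and 1.54% of all genes. It was 2 without I.P. mouse 2, beside 2.99%. The NF-κB subunits and kinases had median log2 fold changes of -0.07 in I.P. and 0.06 in S.C. compared with DMSO. None of these 23 genes met the criterion in I.P. compared with DMSO, and none was below 0.05 before adjustment. In S.C. compared with DMSO only Rel, the gene of c-Rel, met it (2.25 ± 0.77), at 17.5 CPM in S.C. mouse 1, 78.1 CPM in S.C. mouse 2 and 7.85 to 12.3 CPM in the DMSO mice. The count of this list was lower without DMSO mouse 2 and higher without DMSO mouse 1. It was also higher without either S.C. mouse, when more of all genes met the criterion as well. Each of these fits leaves 1 mouse in a group, and its count is not read as a result.

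Inflammatory NF-κB targets met the criterion in 4 of 26 cases in I.P. and in 12 of 27 cases in S.C. compared with DMSO, all higher, beside 1.53% and 2.29% of all genes. Among the 12, Csf3 (0 and 2 counts in the DMSO mice) and Lcn2 (4 and 10) passed the filter only through the S.C. mice. Among the 4, Lcn2 and Saa3 (5 and 47 counts in the DMSO mice) passed it only through the I.P. mice. In S.C. compared with DMSO the log2 fold changes were 5.29 ± 0.43 for Il1b, 4.34 ± 0.44 for Cxcl2 and 5.21 ± 0.67 for Cxcl1, which encode a fever-inducing cytokine and neutrophil-attracting chemokines. Il1b was measured at 6.95 and 9.01 CPM in the DMSO mice, 226, 5.08, 7.68 and 1.02 CPM in I.P. mice 1 to 4, and 247 and 378 CPM in the S.C. mice, so that I.P. mouse 1 again stood with the S.C. mice. Transcripts known to be degraded through Zfp36 or Zc3h12a, which share members with the targets above, met it in 1 of 12 and 10 of 12 cases, beside the same shares of all genes, with medians of 1.03 and 2.19. Nfkbiz is itself one of these decay targets. Decay factors and most of their targets were thus higher in the same S.C. mice. The I.P. count of inflammatory targets was lower without DMSO mouse 1, a fit with 1 DMSO mouse. Counted in either direction, the I.P. count of decay targets was 3 without I.P. mouse 2 and 0 without I.P. mouse 4, beside 2.99% and 1.54% of all genes. The I.P. median of 1.03 was taken with I.P. mouse 1 included. Decay targets summed to 5189 CPM in that mouse, 895 to 1277 CPM in I.P. mice 2 to 4 and 848 to 1201 CPM in the DMSO mice. Inflammatory targets summed to 7638 CPM in I.P. mouse 1, 3717 to 4301 CPM in I.P. mice 2 to 4 and 4508 to 4836 CPM in the DMSO mice.

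Early-response genes, which activating signals and also the dissociation of a tissue can induce within a short time, were followed beside these results. Their summed level was 2646 and 4195 CPM in the DMSO mice, 11162 CPM in I.P. mouse 1, 2508 to 4030 CPM in I.P. mice 2 to 4, and 9113 and 11994 CPM in the S.C. mice. In S.C. compared with DMSO 17 of 22 met the criterion, all higher, beside 2.29% of all genes, including Nr4a1 (5.25 ± 0.36), Dusp2 (3.87 ± 0.54) and Fosb (4.90 ± 0.69). In I.P. compared with DMSO 2 of 22 met it, both lower, including the heat shock gene Hspa1b (-1.91 ± 0.50), beside 0.468% of all genes as lower. Of the 22, however, 19 had a positive log2 fold change there, with a median of 1.01 when I.P. mouse 1 was included. The count of early-response genes was lower without DMSO mouse 1, a fit with 1 DMSO mouse. Counted in either direction it was 5 without I.P. mouse 2 or I.P. mouse 3, beside 2.99% and 3% of all genes. Their part in the levels of the 10 genes was not tested.

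Markers of macrophages and of the other cells that a sort may hold were followed as well. The summed level of 11 macrophage markers was 12746 to 15282 CPM in the DMSO mice. It was 14373 to 19839 CPM in the I.P. mice and 16270 to 16739 CPM in the S.C. mice. Mrc1 alone of the 11 met the criterion in S.C. compared with DMSO, at a lower level (-1.06 ± 0.41), beside 2.77% of all genes as lower. Single markers went different ways. Emr1 was at 316 CPM in I.P. mouse 1 and 353 CPM in S.C. mouse 1, and at 588 to 1012 CPM in the other 6 mice. Csf1r was at 500 and 346 CPM in the same 2 mice, and at 637 to 1119 CPM in the others. C1qb was highest in I.P. mouse 1, at 8126 CPM. Neutrophil markers summed to 186 and 198 CPM in the DMSO mice and 137 to 185 CPM in the I.P. mice. Their sum was 288 and 498 CPM in the S.C. mice. In S.C. compared with DMSO 5 of 10 met the criterion, all higher, beside 2.29% of all genes as higher. Among these 5, Ngp (11 and 2 counts in the DMSO mice), Ltf (5 and 0) and Camp (5 and 0) passed the filter only through the S.C. mice. T and NK cell markers summed to 1.85 and 27.6 CPM in the DMSO mice, 2.02 to 23.3 CPM in the I.P. mice and 33.2 and 93.7 CPM in the S.C. mice. Of 8 tested in S.C. compared with DMSO 2 met the criterion, both higher, beside 2.29% of all genes as higher. These were Gzma (2 and 0 counts in the DMSO mice) and Il2rb (17 and 1). Both passed the filter only through the S.C. mice and were not tested in I.P. compared with DMSO. Melanoma markers reached 1719 CPM in I.P. mouse 4 and 2925 CPM in S.C. mouse 1, compared with 458 to 983 CPM in the other 6 mice. Monocyte markers summed to 74.1 and 117 CPM in the DMSO mice, 21.0 to 323 CPM in the I.P. mice and 114 and 197 CPM in the S.C. mice. Chi3l3 alone was at 287 CPM in I.P. mouse 1. Ccr2 was at 60.1 and 79.6 CPM in the DMSO mice, 12.6, 7.34, 13.0 and 20.7 CPM in I.P. mice 1 to 4, and 59.5 and 76.1 CPM in the S.C. mice. Of 6 monocyte markers it alone met the criterion in I.P. compared with DMSO, at a lower level (-2.39 ± 0.36), beside 0.468% of all genes as lower. B cell markers were at 9.06 to 20.6 CPM in the DMSO and I.P. mice and 25.3 and 29.2 CPM in the S.C. mice, with Pax5 at 0 throughout. Dendritic cell markers were at 1.91 to 7.76 CPM in the DMSO and I.P. mice and 9.32 and 29.9 CPM in the S.C. mice. Endothelial markers were at 3.62 to 10.6 CPM over all mice, and fibroblast markers at 0 to 1.26 CPM, with Pdgfra at 0 throughout. In I.P. mouse 1 the neutrophil sum was 185 CPM, above the 137 to 149 CPM of the other I.P. mice and just below both DMSO mice. Single neutrophil markers differed in direction in this mouse. S100a8 was at 21.0 CPM there, compared with 1.68 to 7.96 CPM in the DMSO and other I.P. mice, and Retnlg (2.47 CPM) and Ngp (2.15 CPM) were also above all of these mice, whereas Mmp8 (24.0 CPM) was the lowest of the 8. The part of these cells in the levels of the 10 genes was not tested.

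**Figure D5:**
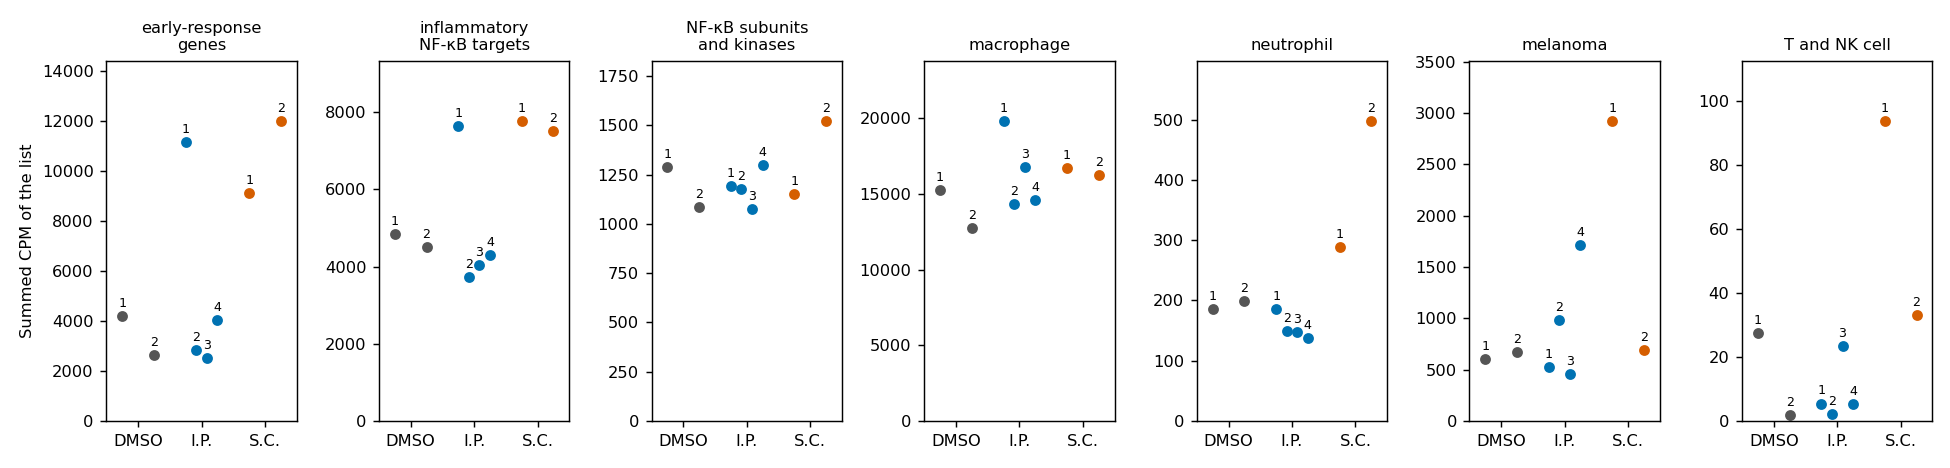
Summed level of 7 gene lists in each mouse, in CPM on linear axes that start at 0, with 1 numbered point per mouse. The early-response genes and the inflammatory NF-κB targets are high in I.P. mouse 1 and both S.C. mice, whereas the NF-κB subunits and kinases stay between 1074 and 1523 CPM in all 8 mice, and the neutrophil, melanoma and T and NK cell lists follow other patterns.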

How the data were processed

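Sorted TAMs of 8 mice (2 DMSO, 4 I.P. and 2 S.C., the last named IS in the labels) were sequenced and grouped by those labels. Raw counts per gene symbol were deposited by the authors without normalization. The paper's methods name alignment by bowtie2 and counting by RSEM on mm10, whereas the submitters' processing notes name TopHat2 and edgeR, so the counting step is not certain. Counting by strand was not stated, so reads of a gene and of an overlapping antisense gene cannot be told apart, which touches Nfkbib, Bcl3 and Zfp36.

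Counts were filtered by filterByExpr (minimum count 10, minimum total 15), scaled by TMM and tested pair by pair with the two-sided quasi-likelihood test of edgeR 4.0.16 in R 4.3.3, with limma 3.58.1 and DESeq2 1.42.0. P values were adjusted over all genes tested by the Benjamini-Hochberg method, and the study's criterion is a 2-fold difference with P below 0.05 before adjustment. Standard errors of log2 fold changes were derived from the F statistics. The scripts were tested on simulated data. Mice had 14127506 to 17577466 counts, so that a floor of 3 counts lies at 0.168 to 0.217 CPM and covers counting error only. The 10 genes and all lists were chosen with earlier results of these data known, so that their counts are descriptions. Named genes are the 10, up to 4 genes per other list with the smallest P among those that met the criterion, and the genes most like the 10 in pattern, for which a mean level of 5 CPM was required. Cell markers and genes that passed the filter only through treated mice are named as well. I.P. mice 2 to 4 taken without I.P. mouse 1 are described only, since that mouse was noticed from its values. Coordinates are from GENCODE vM21 (GRCm38, the mm10 build), and promoter windows from RefSeq on GRCm38.p6. Alternatives were DESeq2, the likelihood ratio test, RLE factors, library size only, genes unfiltered or kept at 1 CPM in 2 samples, a joint fit of the 3 groups, a replicate block, and leaving out each mouse. A block with crossed numbers and a fit to only the mice whose number occurs in both groups were added after the data were seen.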

Additional observations from a re-analysis of the deposited data

Results flagged for a closer look

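I.P. mouse 1 lay far above the other 3 I.P. mice for 5 of the 10 genes. The gap to the nearest mouse, divided by the range of the 4 I.P. mice, exceeded Dixon's critical value for groups of 4 for Zfp36 (0.93, with 459 CPM against 139.9 CPM in the nearest mouse), Zc3h12a (0.928, 36.7 against 10.6 CPM), Nfkbia (0.919, 967 against 157 CPM), Nfkbiz (0.879, 197 against 33.9 CPM) and Nfkbib (0.869, 120.0 against 57.8 CPM). The same mouse was the highest I.P. mouse for the other 5 genes, with 0.801 for Nfkbid, 0.792 for Bcl3, 0.677 for Nfkbie, 0.322 for Tnfaip3 and 0.16 for Tnip1, which did not exceed it. Chance alone exceeds it in about 1 of 20 groups, and the 10 genes are not independent of each other. The share of all genes that exceed it was not computed. Over all genes tested, I.P. mouse 1 differed from the other I.P. mice by a median absolute log2 difference of 0.557 to 0.634. Among I.P. mice 2 to 4 this was 0.265 to 0.421, so the gap of this mouse is not particular to the 10 genes.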

How the results depend on the processing

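Under the alternatives no log2 fold change of the 10 genes that met the criterion changed sign. In I.P. compared with DMSO, 0 genes met the criterion, and 1 did with no filter, the likelihood ratio test, DESeq2, the replicate block and the fit to mice with shared numbers only. Leaving out 1 mouse gave 0 to 4 genes and medians of 0.24 to 0.82. In S.C. compared with DMSO, 7 genes met it, and 8 with no filter, the likelihood ratio test and DESeq2. Leaving out 1 mouse gave 5 to 8 genes and medians of 1.59 to 1.96, while the genes of the whole table that met it, 591 with all mice, went from 113 without DMSO mouse 2 to 3432 without S.C. mouse 2. In S.C. compared with I.P., 3 genes met it, 1 with the replicate block and 0 with the fit to mice with shared numbers only, whose median was 0.60. Leaving out 1 mouse gave 1 to 7 genes and medians of 0.73 to 1.88, with 632 (without I.P. mouse 2) to 2115 (without S.C. mouse 2) genes of the whole table, against 860. The cause of these differences was not tested. Members with an adjusted p under 0.05 in S.C. compared with DMSO were 0 by the quasi-likelihood test, 5 by DESeq2, 5 by the likelihood ratio test and 2 with no filter. Scaling by library size alone moved the median of all genes in this comparison from 0.02 to -0.13, and the 10 genes then had a median of 1.59 with 7 meeting the criterion, while the genes of the whole table that met it went from 268 higher and 323 lower to 196 higher and 429 lower. Same-numbered mice showed no sign of deviating together (correlations -0.11 and 0.03 for I.P. with DMSO, -0.14 for S.C. with DMSO, 0.07 and -0.0035 for S.C. with I.P.). In a group of 2 mice the deviations from the mean mirror each other, so these values cannot exclude a pairing by number. The replicate block gave 6 genes in S.C. compared with DMSO, and the block with crossed numbers 6 there and 3 in S.C. compared with I.P. At this depth 3 counts were at most 0.217 CPM, and the lowest level of any of the 10 genes was 8.37 CPM.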
